A study of Rattus norvegicus with 6 samples.

Results

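The microRNAs (miRNAs) of the HOX clusters described here are miR-10a, miR-10b, miR-196a, miR-196b and miR-196c. They were chosen by name, as the deposited rows of genome-matched miRNA hairpins that carry 1 of these 5 names (rno-mir-10a, rno-mir-10b, rno-mir-196a, rno-mir-196b and rno-mir-196c), with or without a copy number. This gave 6 rows (miR-196b has 2 copies) of 379 genome-matched miRNA rows and of 26562 small RNA rows in all. The libraries came from the epididymal spermatozoa of wild type Wistar rats that were 5 months old. The SD group (3 libraries, CTRL1, CTRL2 and CTRL3) received a standard diet, and the HPD group (3 libraries, HPD2, HPD3 and HPD7) received a high-protein diet for 2 to 3 months, starting at the age of 10 weeks. The study's methods describe the samples as individual rats and name a hypotonic shock against somatic cells. The cage of each rat is not given in the sources used here, and the names of the HPD libraries could not be tied to numbered rats. The comparison asks which sperm miRNAs differ between fathers on these diets.

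The HOX genes encode transcription factors that set the identity of body segments along the head-to-tail axis, and they lie in 4 clusters in mammals. Genes for miR-10 and miR-196 lie within these clusters. A mature miRNA binds messenger RNAs mainly through its seed, the bases 2 to 8 from its 5′ end, and lowers the stability or the translation of the bound RNA. In mouse embryos miR-196a directs the cleavage of the messenger RNA of Hoxb8, and miR-10b is known in human cells for its part in the spread of breast cancer.

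In the rat RefSeq annotation of assembly GRCr8, used here for names and neighbours only, each gene lay beside or inside HOX genes. Mir10a lay on chromosome 10 between Hoxb5 and Hoxb4, and Mir196c lay on the same chromosome between Hoxb13 and Hoxb9. Mir10b lay on chromosome 3 inside Hoxd4, Mir196a on chromosome 7 between Hoxc10 and Hoxc9, and Mir196b on chromosome 4 between Hoxa9 and Hoxa10. The second copy of miR-196b was not matched by name.

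The mature 5p sequences of the members from RefSeq (GRCr8) are shown because they divide the members into groups by seed, which is in capitals.
rno-miR-10a-5p: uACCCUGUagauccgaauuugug
rno-miR-10b-5p: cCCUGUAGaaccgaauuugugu
rno-miR-196a-5p: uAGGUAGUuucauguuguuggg
rno-miR-196b-5p: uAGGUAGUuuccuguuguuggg
rno-miR-196c-5p: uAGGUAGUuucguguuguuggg

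The 3 miR-196 sequences shared the seed AGGUAGU, which no other of the 693 mature rat miRNAs in the table had. They differed from each other only at base 12, counted from 1 at the 5′ end, where miR-196b had the change A12C and miR-196c the change A12G relative to miR-196a. The entry for miR-10b-5p starts 2 bases further into the sequence than that of miR-10a-5p, so the annotated seeds of the pair differ. Read from the base that matches the start of miR-10a-5p, the Mir10b hairpin holds a stretch of 23 bases that is identical to miR-10a-5p at 22 of them, with the change U12A.
Mir10b hairpin from the first base of miR-10a-5p: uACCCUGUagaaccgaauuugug

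The same letters as the miR-196 seed also occur in let-7, starting 1 base later, at base 3, in 8 of 9 mature let-7 and miR-98 sequences. Close relatives of miR-10, miR-100 and miR-99b, have a seed of their own. The following sequences are shown for these comparisons, with the seed of each in capitals.
rno-let-7a-5p: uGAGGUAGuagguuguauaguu
rno-miR-100-5p: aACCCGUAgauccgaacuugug
rno-miR-99b-5p: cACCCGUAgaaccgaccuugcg

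The hairpins of both miR-10 genes are given with their annotated mature miRNAs in capitals, because the deposited rows count the hairpin and do not separate its arms.
Mir10a hairpin: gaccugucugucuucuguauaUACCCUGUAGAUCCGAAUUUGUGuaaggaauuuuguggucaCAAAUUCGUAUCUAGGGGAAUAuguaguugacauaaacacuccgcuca
Mir10b hairpin: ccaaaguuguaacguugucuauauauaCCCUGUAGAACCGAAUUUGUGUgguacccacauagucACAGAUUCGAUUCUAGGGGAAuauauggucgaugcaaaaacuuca

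The SD libraries held 4141018 to 7920000 reads and the HPD libraries 5703625 to 7697588 reads. The percentage of reads in miRNA was 28.9, 20.9 and 23.2 in CTRL1, CTRL2 and CTRL3, and 15.1, 13.4 and 11.3 in HPD2, HPD3 and HPD7. It was lower in each HPD library than in each SD library, so the members were compared both over all small RNAs and within the miRNA reads. Levels below are in RPM, the estimated reads per 1000000 reads of the library size after TMM scaling (trimmed mean of M values). Levels of different miRNAs are set side by side without a length correction. This assumes that the reads of hairpin rows are short mature RNAs of like length, which was not tested.

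In the sperm of HPD fathers, miR-10a, miR-10b, miR-196a and miR-196b were all lower than in SD fathers, by a log2 fold change of −1.37 to −1.82. All 5 rows of these members passed the adjusted p threshold of 0.05 in edgeR's quasi-likelihood test, with 1858 small RNA rows tested together. Rows called lower made up 6.4% of all small RNA rows and 29.5% of the 281 miRNA rows tested, and no miRNA row was called higher. All 5 rows also met a stricter rule that the study also applied (at least a 2-fold change and an average normalized count over 200), as did 4.57% of all small RNA rows and 20.6% of the miRNA rows on the lower side. The median log2 fold change was 0.03 over all rows and −0.87 over the miRNA rows.

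The most abundant member in SD sperm was miR-10a, whose gene lies in the Hoxb cluster. Its reads numbered 94603, 31494 and 33932 in CTRL1, CTRL2 and CTRL3, and 20154, 21802 and 16846 in HPD2, HPD3 and HPD7. This corresponded to 11949, 7155 and 7355 RPM in the SD libraries and 3973, 3078 and 2133 in the HPD libraries. The groups did not overlap, and CTRL1 was the highest library. The level of miR-10a was 8820 ± 2712 RPM in SD and 3061 ± 920 in HPD (± SD of the libraries, n = 3). Its log2 fold change was −1.53 with a standard error of 0.29 (edgeR adjusted p = 0.00867).

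The level of miR-10b, from the Hoxd cluster, was close to that of miR-10a in every library. Its reads numbered 93767, 27505 and 28101 in the SD libraries and 18656, 23953 and 18328 in the HPD libraries. It stood at 11844, 6249 and 6091 RPM in CTRL1, CTRL2 and CTRL3, and at 3678, 3381 and 2320 in HPD2, HPD3 and HPD7. CTRL1 was far above the other SD libraries, and the groups did not overlap. The group levels were 8061 ± 3277 and 3127 ± 714 RPM (± SD, n = 3). The fall in miR-10b was the smallest of the 4 members tested, with a log2 fold change of −1.37 and a standard error of 0.31 (edgeR adjusted p = 0.0188).

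For miR-196a, from the Hoxc cluster, 2109, 1135 and 1447 reads were counted in the SD libraries and 610, 579 and 301 in the HPD libraries. The levels were 266, 258 and 314 RPM in CTRL1, CTRL2 and CTRL3 and 120.3, 81.7 and 38.1 in HPD2, HPD3 and HPD7. The SD libraries lay close together, and the HPD libraries lay below them and apart from each other. The mean level was 279 ± 30.1 in SD and 80.0 ± 41.1 RPM in HPD (± SD, n = 3). The log2 fold change of miR-196a was −1.80 with a standard error of 0.38 (edgeR adjusted p = 0.0150).

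The 2 rows of miR-196b held equal counts in every library, so that they cannot be told apart and were summed for its level. The summed reads of miR-196b numbered 1885, 759 and 1336 in the SD libraries and 451, 439 and 372 in the HPD libraries. Its level was 238, 172 and 289.6 RPM in CTRL1, CTRL2 and CTRL3, and 88.9, 62.0 and 47.1 in HPD2, HPD3 and HPD7. The groups did not overlap. The mean was 233 ± 58.7 in SD and 66.0 ± 21.2 RPM in HPD (± SD, n = 3), and each row had a log2 fold change of −1.82 with a standard error of 0.34 (edgeR adjusted p = 0.00704).

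The last member, miR-196c, was near the limit of detection. It had 26, 2 and 7 reads in the SD libraries and 6, 6 and 2 in the HPD libraries, which overlapped. It did not pass the filter on low counts, and a difference was not detectable at this depth.

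**Figure D1:**
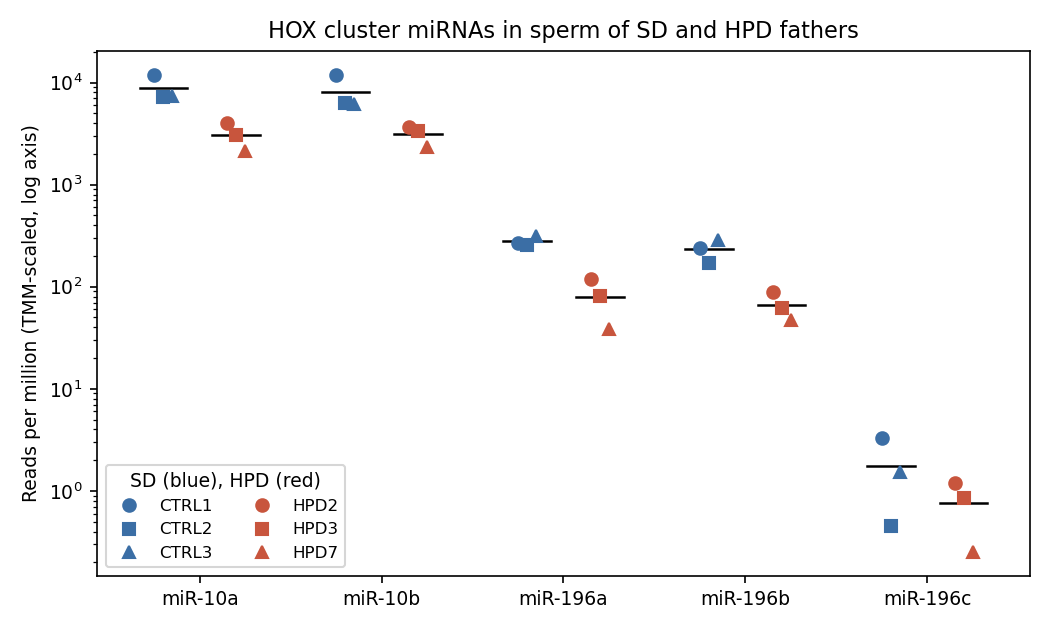
RPM (TMM-scaled, log axis) of the 5 HOX cluster miRNAs in each library, with SD in blue, HPD in red and the group mean as a line. For miR-10a, miR-10b, miR-196a and miR-196b the 3 HPD libraries lie below the 3 SD libraries, while the libraries of miR-196c overlap.

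For each of these 4 members the HPD libraries stood in the same order, HPD2 above HPD3 above HPD7, which was also their order in the percentage of miRNA reads. In the SD libraries that percentage ran CTRL1 above CTRL3 above CTRL2, an order that only miR-10a shared. For miR-10b CTRL2 stood above CTRL3, and miR-196a and miR-196b were highest in CTRL3. Groups that do not overlap, with HPD below SD, were also found for 134 of the 281 miRNA rows tested (47.7%) and for 13.1% of all small RNA rows. By the size of the fall in log2 fold change among the 281 miRNA rows, miR-196b stood at place 43, miR-196a at 45, miR-10a at 69 and miR-10b at 88. These 4 members were therefore neither at the top of the list nor among the miRNAs that fell least.

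The calls did not all hold when a library was left out. Without HPD3 none of the 5 rows was called, with edgeR adjusted p between 0.0599 and 0.103 and log2 fold changes from −1.38 to −1.78. Without CTRL2 3 rows were called (miR-10a and both of miR-196b), and without CTRL1, HPD2 or HPD7 4 rows were called, with miR-10b lost each time. All 5 were called without CTRL3. The miRNA rows called lower fell from 83 to 40 without HPD3 (13.7% of those tested) and to 49 without CTRL2 (16.9%). They made up 20.1% without CTRL1, 19.9% without HPD2, 17.3% without HPD7 and 27.4% without CTRL3. Over all small RNA rows, 4.61% (without CTRL1), 2.73% (CTRL2), 4.28% (CTRL3), 3.12% (HPD2), 2.93% (HPD3) and 3.63% (HPD7) were called lower. The direction of each member tested stayed the same in all 6 of these fits. This adds little, since the groups did not overlap for these members and leaving out a library could hardly reverse them.

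**Figure D2:**
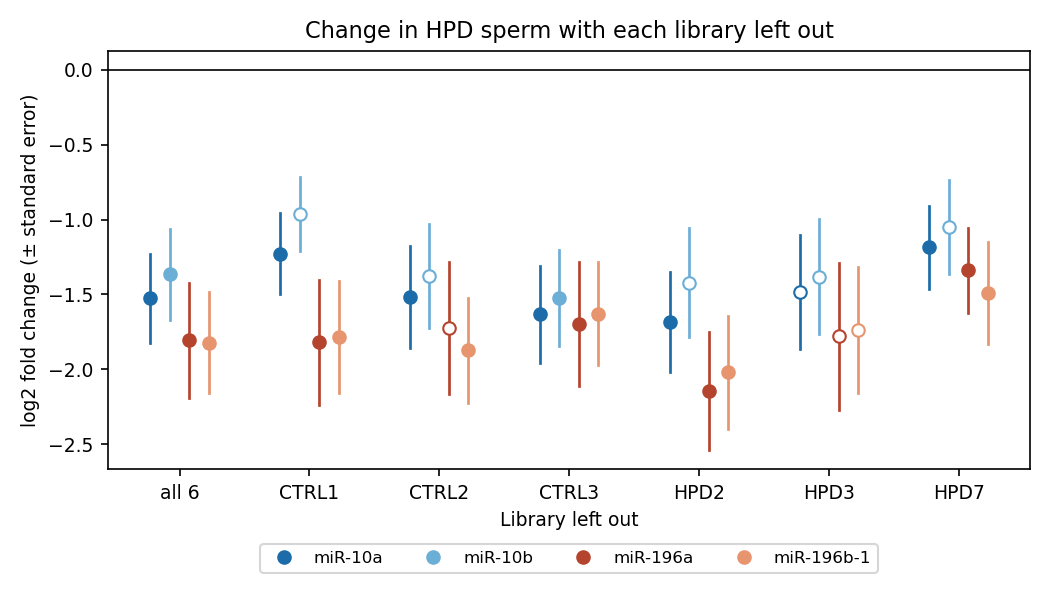
Log2 fold change of HPD against SD (± standard error) for the members tested, with all 6 libraries and with each library left out in turn. Filled circles have an edgeR adjusted p of at most 0.05 and open circles do not; all values are below 0 and all are open without HPD3.

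Within the miRNA reads alone, the members also took a smaller part in HPD sperm. All members together made up 8.40%, 7.05% and 6.56% of the miRNA reads in CTRL1, CTRL2 and CTRL3, and 4.63%, 4.55% and 4.27% in HPD2, HPD3 and HPD7. The SD libraries differed more among themselves than the HPD libraries, with means of 7.33 ± 0.954% and 4.48 ± 0.188% (± SD, n = 3). Most of this was miR-10, since both miR-196 members that passed the filter stayed below 0.2% in every library.

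The share of miR-10a was 4.13%, 3.64% and 3.43% of miRNA reads in the SD libraries and 2.34%, 2.12% and 2.01% in the HPD libraries. The share of miR-10b was 4.09%, 3.18% and 2.84% against 2.16%, 2.33% and 2.18%. For both, each HPD library was below each SD library, and the HPD mean was 57.7% of the SD mean for miR-10a and 66.0% for miR-10b. The share of miR-196a was 0.0920%, 0.131% and 0.146% in SD and 0.0708%, 0.0563% and 0.0358% in HPD libraries. That of miR-196b was 0.0823%, 0.0878% and 0.135% in SD and 0.0523%, 0.0427% and 0.0443% in HPD libraries. The HPD means were 44.1% and 45.6% of the SD means for miR-196a and miR-196b, again without overlap. Each of these 4 differences in share had p = 0.1 in a two-sided exact permutation test (adjusted over 4 tests, 0.1), the smallest p that 3 against 3 libraries allow. HPD lay below SD without overlap in the share of miRNA reads for 74 of the 281 miRNA rows (26.3%).

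**Figure D3:**
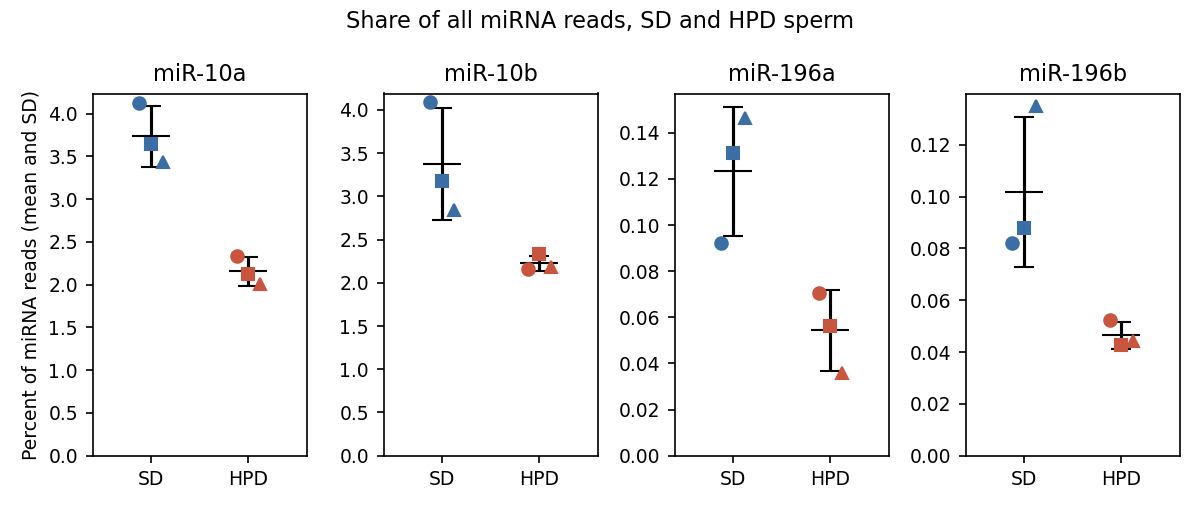
Percent of all miRNA reads taken by each of the 4 members in the 3 SD (blue) and 3 HPD (red) libraries, with the group mean and standard deviation in black and each axis starting at 0. Each HPD library lies below each SD library, from means of 3.73% to 2.15% for miR-10a and from 0.123% to 0.0543% for miR-196a.

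When the miRNA rows were fitted on their own, with TMM factors taken among them, the falls were smaller and miR-10b no longer passed the test. In this fit 46 of 277 miRNA rows were called lower (16.6%) and 25 higher (9.03%), with a median log2 fold change of −0.09, whereas the fit over all small RNAs called 83 miRNA rows lower and 0 higher. The log2 fold change was −0.75 for miR-10a (SE 0.23, edgeR adjusted p = 0.0268), −1.12 for miR-196a (SE 0.31, adjusted p = 0.0174) and −1.10 for each miR-196b row (SE 0.29, adjusted p = 0.0157). For miR-10b it was −0.56 with an adjusted p of 0.0901 (SE 0.24, edgeR). With single libraries left out of this fit, 0 to 3 of the 5 member rows were called. None was called without HPD7, miR-196a alone without CTRL3 or HPD3, and only the rows of miR-196b, which hold equal counts, without CTRL2. Without CTRL1 or HPD2 the 3 rows called were miR-196a and both of miR-196b. In the same fits the miRNA rows called lower made up 9.86% (28 rows, without HPD3) to 15.7% (44 rows, without CTRL1). Those called higher numbered 11 without CTRL2 and 15 without HPD7, and 20 to 35 without each of the other libraries.

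**Figure D4:**
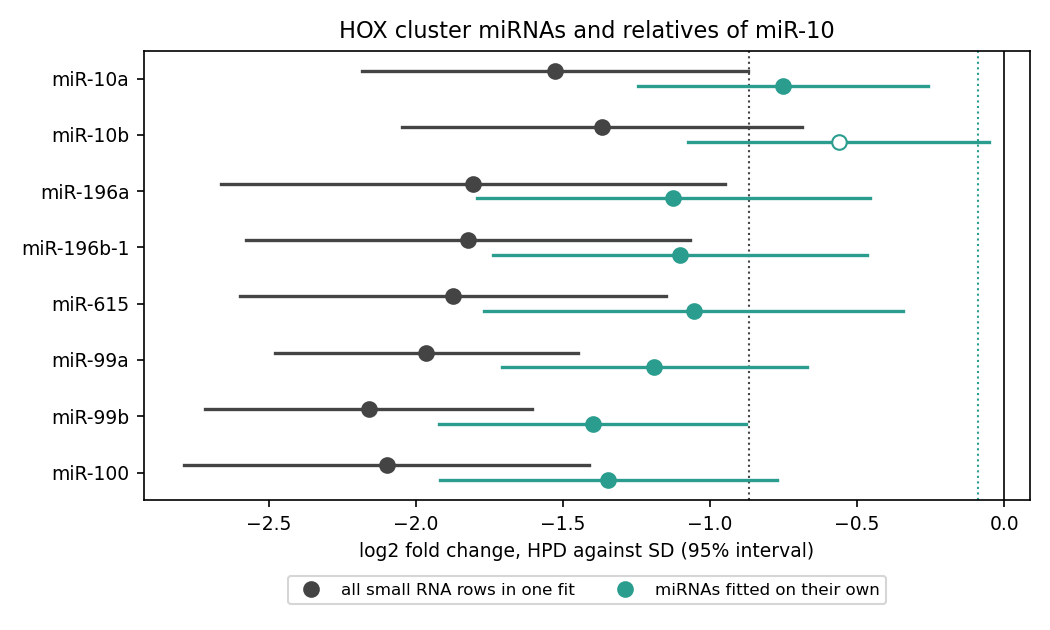
Log2 fold change of HPD against SD with its 95% interval for the members tested, miR-615 and the miR-10 relatives miR-99a, miR-99b and miR-100, over all small RNAs (dark) and among miRNAs on their own (green). Filled circles have an edgeR adjusted p of at most 0.05, dotted lines mark the median of all miRNA rows in each fit (−0.87 and −0.09), and only miR-10b among miRNAs on their own is open.

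The order of the levels was miR-10a, miR-10b, miR-196a, miR-196b and miR-196c in the SD means, and miR-10b stood just above miR-10a in the HPD means. Of 330 miRNA hairpin names, with copies summed, miR-10a had place 8 in SD and 14 in HPD, and miR-10b had place 11 and 13. Places 83 and 102 belonged to miR-196a, 91 and 104 to miR-196b, and 249 and 250 to miR-196c. The levels of miR-10a and miR-10b were close, with a ratio of 1.01, 1.15 and 1.21 in the SD libraries and 1.08, 0.910 and 0.919 in the HPD libraries. For miR-196a and miR-196b the ratio was 1.12, 1.495 and 1.08 in SD and 1.35, 1.32 and 0.809 in HPD libraries. In both pairs the first was the higher in each SD library. Whether the members of a pair differ in level was not tested. The step from the miR-10 to the miR-196 members was wide, since miR-10b had 19.4 to 60.9 times the reads of miR-196a in the 6 libraries.

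Whether members shifted against each other was asked by the log2 ratio of each of 6 pairs within a library, which no scaling of the library can change. The log2 ratio of miR-10a to miR-10b was 0.01, 0.20 and 0.27 in the SD libraries and 0.11, −0.14 and −0.12 in the HPD libraries. These values overlapped, and their means differed by −0.21 (two-sided exact permutation p = 0.2, adjusted over 6 pairs 0.6). The log2 ratio of miR-10b to miR-196a had the largest difference, 0.63 higher in HPD, with values of 5.47, 4.60 and 4.28 against 4.93, 5.37 and 5.93. It overlapped too (exact permutation p = 0.3, adjusted 0.6). For the remaining 4 pairs the differences ran from −0.11 to 0.52 and the adjusted p from the same exact test from 0.6 to 0.8. A shift between members was thus not detectable with 3 libraries a group, where p cannot fall below 0.1.

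**Figure D5:**
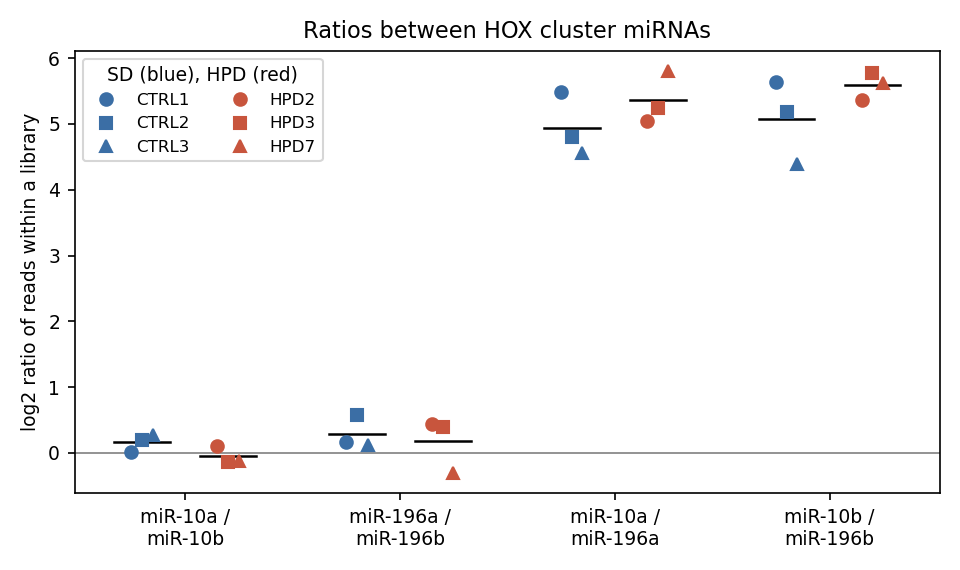
Log2 ratio of the reads within each library for 4 of the 6 pairs (miR-10a to miR-10b, miR-196a to miR-196b, miR-10a to miR-196a and miR-10b to miR-196b), with SD in blue, HPD in red and group means as lines. The ratios within the miR-10 pair and within the miR-196 pair lie near 0, the other pairs shown lie between 4.39 and 5.81, and the groups overlap for each pair shown.

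The miRNAs whose pattern over the 6 libraries was most like that of each member were found by the root mean square difference of log2 normalized counts, each centred on its own mean, among 140 hairpins with a mean normalized count above 200. The copies of miR-181a were the nearest for miR-10a (0.134 and 0.138) and for miR-10b (0.131 and 0.135), where the median over all candidates was 0.546 and 0.521. Next came miR-181b-1 for miR-10a (0.192) and miR-30d for miR-10b (0.147). For comparison, miR-10a and miR-10b differed from each other by 0.152. For miR-196a the nearest were miR-218a-1 (0.233), miR-320 (0.238) and miR-218a-2 (0.247), with a median of 0.800 over the candidates. For miR-196b they were miR-218a-2 (0.105), miR-218a-1 (0.136) and miR-30c-1 (0.151), with a median of 0.684. The pair of miR-196a and miR-196b differed from each other by 0.289 and from the miR-10 members by 0.334 to 0.554. These values describe 6 points that share the same libraries.

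Another HOX cluster miRNA, miR-615, whose gene lies inside the annotated spans of Hoxc6 and Hoxc5 on chromosome 7, was lower in HPD sperm as well. Its level was 49.0, 38.6 and 33.2 RPM in the SD libraries and 11.6, 9.60 and 11.8 in the HPD libraries. It was scarcer than miR-196a and miR-196b, and the groups did not overlap. Its log2 fold change was −1.87 with a standard error of 0.32 (edgeR adjusted p = 0.00485), and −1.06 among miRNAs on their own (edgeR adjusted p = 0.0306).

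The relatives of miR-10 by sequence, which do not lie in HOX clusters, fell in each of 3 rows. The median log2 fold change of miR-99a, miR-99b and miR-100 was −2.10, against −0.87 over all miRNA rows. The level of miR-99a was 5728, 6189 and 4447 RPM in the SD libraries and 1653, 1218 and 1324 in the HPD libraries. Its log2 fold change was −1.96, compared to −2.16 for miR-99b and −2.10 for miR-100, and all 3 were also called among miRNAs on their own. The let-7 and miR-98 rows, which hold the letters of the miR-196 seed in most of their mature sequences, gave another picture. None of 12 rows was called in either fit, where 29.5% (all small RNAs) and 16.6% (miRNAs on their own) of miRNA rows were called lower. Copies of let-7a, let-7c and let-7f with nearly equal counts are separate rows here. Over all small RNAs the log2 fold changes of the let-7 and miR-98 rows were −1.04 to −0.22, with a median of −0.68. Among miRNAs on their own their median was 0.03. Whether the members differ from these relatives in their change was not tested.

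Sperm samples can hold other cells, and HOX miRNAs are also made in somatic tissue, so the marker miRNAs of other cell types are given beside these results. As a background, 0 of all miRNA rows were called higher over all small RNAs and 9.03% among miRNAs on their own. The germ cell markers miR-34b, miR-34c and miR-449a were present in every library, at a sum of 6435 to 9090 RPM in SD and 10892 to 11125 in HPD. None of these 3 was called over all small RNAs, and all 3 were higher among miRNAs on their own. Of the 12 X-linked testis miRNAs none was called over all small RNAs and 8 were higher among miRNAs on their own, with sums of 5935 to 11853 in SD and 6936 to 11059 in HPD.

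Among all miRNA rows tested, 29.5% were called lower over all small RNAs and 16.6% among miRNAs on their own. Of 6 leukocyte markers 4 fell over all small RNAs and 2 among miRNAs on their own. Their sum was 1997 to 2434 RPM in SD and 1053 to 1190 in HPD. The endothelial marker miR-126a fell in both fits, with a level of 537 to 1150 in SD and 172 to 281 in HPD. Of 4 smooth muscle and stroma markers 2 fell in both fits, with sums of 6926 to 16808 and 3871 to 10654 that overlapped. Of 7 epithelial markers 1 fell over all small RNAs and 1 was higher among miRNAs on their own, with overlapping sums of 6912 to 14288 in SD and 4865 to 8693 in HPD. Of 3 erythroid markers 1 fell over all small RNAs and none was called among miRNAs on their own, with sums of 194 to 304 in SD and 113 to 116 in HPD. No marker was at 0 in any library. The part of other cells in the fall of the HOX cluster miRNAs was not tested, and in bulk samples fewer cells of a type cannot be told apart from less RNA per cell.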

How the data were processed

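Small RNA was measured by sequencing in sperm of 3 SD and 3 HPD rats. The authors annotated the reads with SPORTS1.0 against Rnor_6.0 and deposited a pair of tables. Bowtie, DESeq, DESeq2 and the mouse build mm9 are named as well in the submitters' processing notes. One table gives estimated counts per small RNA as the authors obtained them, without normalization. The other gives the authors' normalized counts, a signal made by dropping the fraction of each count and dividing by a DESeq2 size factor. In each library 100% of its values gave whole reads within 1e-06. A count test on these reads called 120 rows lower and 44 higher, compared to 119 and 41 in the fit reported.

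Libraries were grouped by diet from the labels, and no label gives a batch, so batch and diet cannot be told apart. Estimated counts were rounded and tested in edgeR 4.0.16 (R 4.3.3) by the quasi-likelihood test, with TMM factors, filterByExpr (minimum count 10, minimum total 15) and Benjamini-Hochberg adjustment over 1858 rows. Library size was the sum of rows not nested in another row, at 4141018 to 7920000 reads. The snoRNA total names no single RNA and was left out. It held 0.536%, 0.293% and 0.439% of reads in SD and 1.39%, 1.45% and 1.25% in HPD libraries. Shares and ratios were compared by exact permutation tests. Alternatives used DESeq2 1.42.0, limma 3.58.1 on log2 values of the deposited signal with a pseudocount of 1, other factors and filters, and single libraries left out. The code was tested on simulated data. Figures were drawn with matplotlib 3.10.9.

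The members and lists were chosen with earlier results of these data known. Named miRNAs were the members, the lists of related and marker miRNAs, and the 3 hairpins most like each member with a mean normalized count above 200. RefSeq sequences matched each of the 5 member names.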

Additional observations from a re-analysis of the deposited data

How the results depend on the processing

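No paired analysis was possible because the HPD library names hold 2 numbers that differ and the columns were not tied to numbered rats. All alternatives kept miR-10a, miR-10b, miR-196a and miR-196b lower in HPD than in SD. The 5 member rows called became 0 (without HPD3) to 5 with single libraries left out, and 3 without CTRL2. With upper quartile factors 4 rows were called, since miR-10b lost its call (log2 fold change −1.12, edgeR adjusted p = 0.0538), and these factors moved the median of all rows from 0.03 to 0.28. The rows called lower with these factors were 21.4% of miRNA rows and 4.9% of all rows. All 5 were called with DESeq2 (26% of miRNA rows lower), library size alone (36.3%), no filter on low counts (14.3%), a mean normalized count of at least 50 (44.8%), limma (28.5%) and the recovered whole reads (29.9%), against 29.5% in the fit reported. Over 14 settings across all small RNAs the log2 fold change ranged from −1.68 to −1.19 for miR-10a (called in 13), −1.52 to −0.96 for miR-10b (8), −2.15 to −1.34 for miR-196a (12) and −2.02 to −1.49 for miR-196b-1 (13). These settings refit the same libraries and include the recovered whole reads, a setting that was not planned.

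Further settings for miRNAs on their own were chosen after seeing the data. With single libraries left out 0 (without HPD7), 1 (without CTRL3 or HPD3), 2 (without CTRL2) or 3 (without CTRL1 or HPD2) rows were called. The counts of 2 and 3 include both rows of miR-196b, which hold equal counts. Over 9 settings for miRNAs on their own, of which 8 were chosen in this way, miR-10b was called in 0, miR-10a in 3, miR-196b in 6 and miR-196a in 7. DESeq2 gave an adjusted p of 0.120 for miR-10b there. The log2 ratio of miR-196a to miR-196b, −0.11 for HPD minus SD, turned to 0.04 without CTRL2 and 0.13 without HPD7, and with other single libraries left out it was −0.24 (without HPD2) to −0.17. The cause was not tested. The 83 miRNA rows called lower became 54 with no filter, 49 without CTRL2, 40 without HPD3 and 51 without HPD7. The 41 rows of all kinds called higher became 85 with upper quartile factors, beside 91 lower in place of 119, 68 with DESeq2 (142 lower), 69 with no filter (89 lower) and 95 with a mean of at least 50 (128 lower). With single libraries left out they became 25 without CTRL1 (95 lower), 23 without CTRL2 (72 lower), 23 without HPD2 (86 lower), 15 without HPD3 (62 lower) and 50 without HPD7 (76 lower). With 3 libraries a group, differences in share or ratio could not reach p under 0.1 in the exact permutation test. All p values rest on these few libraries.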
